A study of Mus musculus with 6 samples.

Results

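Expression of 6 fibroblast surface marker genes, Thy1, Cd44, Ly6a, Nt5e, Pdgfra and Pdgfrb, was followed across 6 mouse RNA-seq libraries. The genes were taken by symbol from the 19330 genes of the deposited series table, and 6 of 6 were found there and passed the filter on low counts. Induced pluripotent stem cells (iPSC) gave 4 libraries, 2 from control lines, numbered 3 and 7, and 2 from lines named for palmitoylcarnitine (PC iPSC), numbered 5 and 13. Single libraries came from embryonic stem cells (ESC; titled B6, source name B6/blu) and from mouse embryonic fibroblasts, here MEF. Palmitoylcarnitine is the carnitine ester through which palmitate is carried into mitochondria. The labels give no genotype, passage, dose or time. They do give a layer of mitomycin C-treated MEF feeders and leukemia inhibitory factor for the ESC and for all iPSC lines, so each pluripotent culture was grown with fibroblasts. Whether feeders were removed before RNA was taken is not stated there. Serum was in the medium of all cultures. No label says that lines were derived or grown separately, and the p-values below rest on the spread between these libraries, which may be technical.

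Fibroblasts lose their surface proteins in steps as they are reprogrammed, and cells that have lost Thy1 are commonly sorted as the ones moving towards pluripotency. Thy1 (CD90), Ly6a (Sca-1) and Nt5e (CD73) are held in the membrane by a glycosylphosphatidylinositol (GPI) anchor. Thy1 is an immunoglobulin-superfamily glycoprotein that binds integrins, Ly6a is an interferon-inducible protein of mesenchymal and blood-forming cells, and Nt5e is the enzyme that turns extracellular AMP into adenosine. Cd44 is the main receptor for hyaluronan, and its loss is also used to follow reprogramming. Pdgfra and Pdgfrb are the receptor tyrosine kinases for platelet-derived growth factors. Outside fibroblasts, Thy1 marks T cells and neurons, Cd44 marks leukocytes, Pdgfra marks the primitive endoderm of the early embryo and Pdgfrb marks pericytes.

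Assigned reads came to 26.51 M to 27.99 M per library. The labelled cell types were set against their markers in RPKM, reads scaled to gene length and library total. In MEF the matrix genes Col1a1, Col1a2 and Col3a1 stood at 904, 1666 and 1365. The pluripotency genes Nanog, Esrrb, Zfp42 and Dppa5a stood at 0.0482, 0, 0 and 0 there, whereas Pou5f1 and Sox2 stood at 158 and 88.2 and so were not absent from the MEF library. Macrophage genes were also present in MEF, with Lyz2 at 463, Csf1r at 23.6 and Adgre1 at 17.2. In ESC and the 4 iPSC libraries Nanog lay between 316 and 473 and Cdh1 between 116 and 136. The summed level of 35 fibroblast matrix and contractile genes was 19137 in MEF, 2735 in ESC, 3341 in control iPSC 3 and 5454 to 6511 in the other 3 iPSC lines. In bulk RNA, fewer cells of a type and less RNA per cell cannot be told apart.

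All 6 genes are protein-coding. On GRCm38 (RefSeq) Thy1 lies on chromosome 9 from 44043384 to 44048579, and Nt5e on the same chromosome from 88327609 to 88372089. Cd44 spans chromosome 2 from 102811141 to 102901669, Ly6a chromosome 15 from 74994877 to 74998031 and Pdgfra chromosome 5 from 75151322 to 75198206. The annotated protein-coding transcripts of Cd44 hold 9 to 19 exons, the widest range but for Pdgfra (3 to 23), and a count per gene sums over these isoforms. On the opposite strand, Pdgfra overlaps the antisense gene Gm42802 and the unclassified Gm42803, and Cd44 overlaps a small nuclear RNA gene, Gm23731. Strand use in counting is not given in the sources used here, so reads of such pairs cannot be told apart. Ly6a has close relatives in its cluster, so its count is less certain than the others.

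Promoter windows in RefSeq (GRCm38.p6) were matched by symbol for 3 of the genes, Cd44, Nt5e and Pdgfra. No window was found for Thy1 and Ly6a, and none is shown for Pdgfrb. The share of the MEF level found in iPSC, 53.9% for Cd44, 3.51% for Nt5e and 1.18% for Pdgfra, played no part in this choice. Each window is given 5′ to 3′ from 100 bases before to 30 after an annotated start. Matches to the GC box (GGGCGG, on either strand) are in capitals.
Cd44, chr2:102901636-102901765, minus strand: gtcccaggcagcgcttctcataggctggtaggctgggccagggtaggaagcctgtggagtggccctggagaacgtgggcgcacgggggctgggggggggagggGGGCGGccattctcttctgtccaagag
Nt5e, chr9:88327509-88327638, plus strand: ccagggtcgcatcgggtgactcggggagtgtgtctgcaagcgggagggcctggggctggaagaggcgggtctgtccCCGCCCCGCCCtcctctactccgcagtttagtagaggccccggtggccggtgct
Pdgfra, chr5:75152151-75152280, plus strand: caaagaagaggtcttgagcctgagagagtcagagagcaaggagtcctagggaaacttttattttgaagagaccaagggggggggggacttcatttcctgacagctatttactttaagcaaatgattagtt
In the full windows of 300 bases the GC box was matched 1 time in Cd44, 4 times in Nt5e, where matches overlap in pairs, and 0 times in Pdgfra. Of all 32851 windows, 35.7% held it. The TATA box (TATAAA), an AP-1 motif (TGANTCA), a TEAD motif (CATTCC) and a Zeb or Snail type E-box (CACCTG), searched on both strands, had 0 matches in the 3 windows and were found in 13.6%, 7.81%, 14.7% and 20.2% of all windows. The Nt5e window held 23 CpG, against 6 in Cd44, 5 in Pdgfra and a median of 7 over all windows. The Pdgfra window, 75152001 to 75152300, lies inside the gene, whose RefSeq start is 75151322. Its letters are therefore not those at the first base of the gene, and its counts are not directly comparable with those of Cd44 and Nt5e. A match or its absence describes only these letters.

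Thy1 RNA was abundant in every library. It stood at 37.7 RPKM in ESC, 53.2 and 102 in control iPSC 3 and 7, 109 and 93.8 in PC iPSC 5 and 13, and 188 in MEF. Control iPSC 3 lay nearest to ESC, the other 3 iPSC lines lay close together, and the highest iPSC line was still below MEF. The Thy1 level in MEF was 5.0 times that in ESC, 1 library each and without a test. Each of the 6 genes was higher in MEF than in ESC, as were 47.2% of tested genes.

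Cd44 followed the same order at a lower level. It stood at 8.78 RPKM in ESC, 16.5 and 31.2 in control iPSC 3 and 7, 34.8 and 28.6 in PC iPSC 5 and 13, and 51.5 in MEF. Again control iPSC 3 was lowest of the iPSC lines, and no iPSC line reached MEF or fell to ESC. The level ratio of Thy1 to Cd44 was nearly fixed in iPSC, from 3.13 to 3.28 over the 4 lines, and was 3.66 in MEF and 4.29 in ESC.

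Ly6a had the highest MEF level of the 6 genes, 40.9 times its ESC level. It stood at 14.2 RPKM in ESC, 35.9 and 96.8 in control iPSC 3 and 7, 103 and 79.2 in PC iPSC 5 and 13, and 582 in MEF. By rank, Ly6a was gene 71 of 19330 in MEF and gene 5070 in ESC. Control iPSC 3 was lowest of the iPSC lines here too, with 2.86-fold between the lowest and the highest line.

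Nt5e did not follow that order among the iPSC lines. It stood at 0.490 RPKM in ESC, 2.24 and 1.88 in control iPSC 3 and 7, 0.917 and 3.90 in PC iPSC 5 and 13, and 63.5 in MEF. The 2 PC lines held the lowest and the highest iPSC value, a 4.25-fold span that was the widest among the 6 genes. Reads for Nt5e numbered 49 in ESC, 91 to 379 in iPSC and 6366 in MEF.

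The PDGF receptors were near-equal in MEF and far apart in the pluripotent cultures. Pdgfrb lies on chromosome 18 from 61045127 to 61085067 (GRCm38). Pdgfrb stood at 2.74 RPKM in ESC, 5.79 and 7.58 in control iPSC 3 and 7, 7.41 and 6.44 in PC iPSC 5 and 13, and 66.8 in MEF. Pdgfra stood at 0.567 in ESC, 0.667 and 0.758 in control iPSC 3 and 7, 0.83 and 0.852 in PC iPSC 5 and 13, and 66.0 in MEF. Neither receptor varied much between iPSC lines, the highest being 1.31 times the lowest for Pdgfrb and 1.28 times for Pdgfra. The level ratio of Pdgfrb to Pdgfra was 1.01 in MEF, 4.83 in ESC and 7.55 to 10.00 in iPSC.

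**Figure D1:**
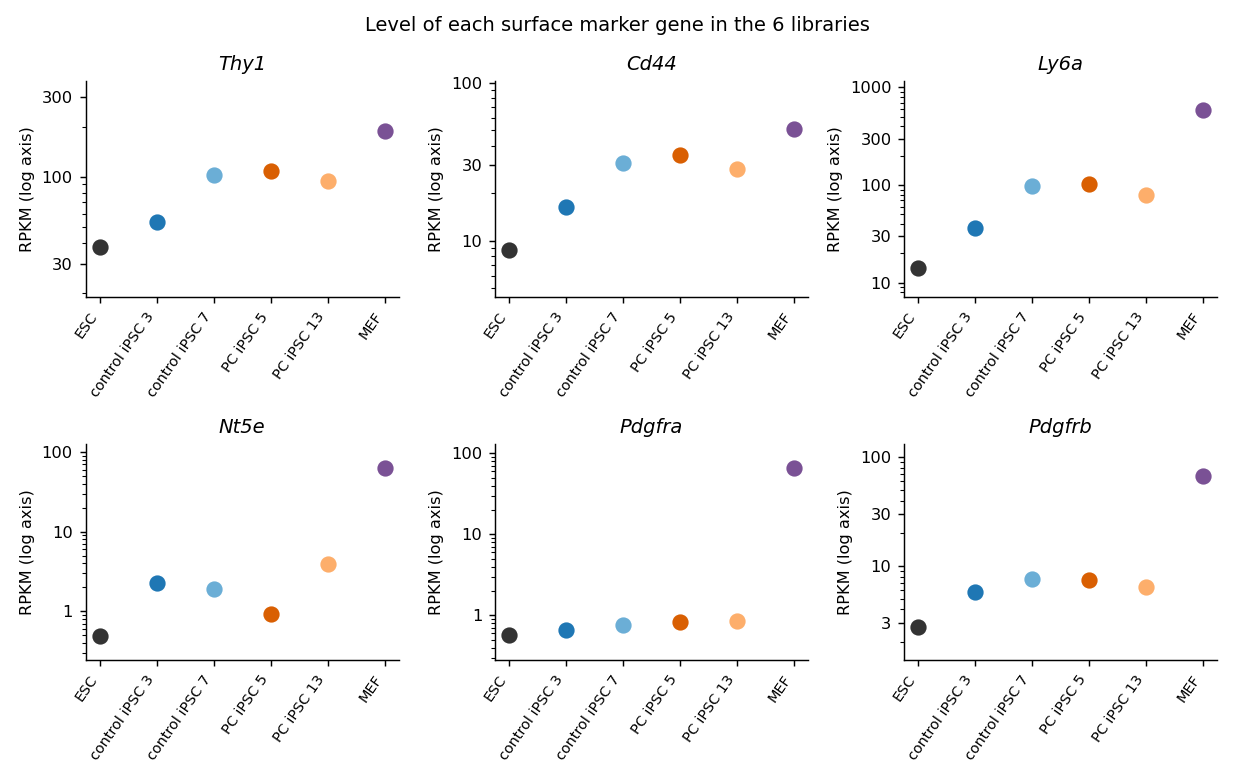
RPKM (log axis, a separate scale for each gene) of the 6 marker genes in each library, 1 point per library and no error bars since each point is a single library. In every panel the 4 iPSC points lie between ESC and MEF, close to ESC for Pdgfra (0.667 to 0.852 against 0.567) and further up for Thy1 (53.2 to 109, against 37.7 in ESC and 188 in MEF).

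The first comparison asked how far the iPSC lines were from the fibroblast state. All 6 genes were called lower in iPSC than in MEF, where 31.6% of all tested genes were called lower and 68.1% in either direction. Pdgfra showed the largest difference, from 66.0 RPKM in MEF to 0.777 ± 0.0833 in iPSC (SD, n = 4), a log2 difference of -6.39 (SE 0.13, adjusted p = 2.06e-06) in edgeR. Nt5e stood at 2.23 ± 1.24 in iPSC (SD, n = 4) and differed by -4.81 (SE 0.51, adjusted p = 0.000229). The receptor tyrosine kinase Pdgfra and the enzyme Nt5e thus had the lowest levels relative to MEF, and Pdgfrb and Ly6a were intermediate. Pdgfrb stood at 6.80 ± 0.841 (SD, n = 4) and differed by -3.27 (SE 0.16, adjusted p = 1.14e-05). Ly6a stood at 78.7 ± 30.2 (SD, n = 4) and differed by -2.88 (SE 0.40, adjusted p = 0.000721). The smallest differences were those of the surface proteins most used to follow reprogramming, Thy1, at 89.4 ± 24.9 (SD, n = 4) and -1.07 (SE 0.30, adjusted p = 0.017), and of Cd44, at 27.8 ± 7.95 (SD, n = 4) and -0.88 (SE 0.30, adjusted p = 0.0359).

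These are edgeR quasi-likelihood tests on counts, adjusted over 16435 genes, in which the single MEF library takes its spread from the iPSC lines. The median log2 difference of all genes was 0.16. The calls of Thy1 and Cd44 ended with limma on log2(RPKM + 1), at -1.12 and -0.92 (adjusted p = 0.075 and 0.11), and that of Cd44 without PC iPSC 13 (-0.83, adjusted p = 0.0701). Leaving out other single lines, or scaling by another method, ended none of the 6 calls.

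The second comparison set the iPSC lines beside ESC. The iPSC lines held more RNA of Cd44, Ly6a and Pdgfrb than ESC, and the other 3 genes did not pass the test. Cd44 differed by 1.60 on the log2 scale (SE 0.36, adjusted p = 0.0401), Ly6a by 2.41 (SE 0.56, adjusted p = 0.0425) and Pdgfrb by 1.27 (SE 0.21, adjusted p = 0.0205). Of all genes, 4.71% were called higher and 10.4% in either direction. The iPSC libraries are the same as in the comparison with MEF, so the comparisons are not independent. Thy1 differed by 1.19 (SE 0.35, adjusted p = 0.0772), Nt5e by 2.15 (SE 0.81, adjusted p = 0.134) and Pdgfra by 0.41 (SE 0.18, adjusted p = 0.18). In these 3, the edgeR 95% interval of the iPSC to ESC ratio ran from 1.28 to 4.09 for Thy1, 1.17 to 16.8 for Nt5e and 0.989 to 1.78 for Pdgfra. All 4 iPSC lines lay above ESC and below MEF for each of the 6 genes, an order held by 15.8% of tested genes. Taken apart, 37.3% of genes had every iPSC line above ESC and 41.7% had every one below MEF.

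These calls lay close to the threshold. Without PC iPSC 5 or PC iPSC 13 the calls of Cd44 (adjusted p = 0.0577 and 0.0522) and Ly6a (0.0633 and 0.0577) ended, with differences of 1.52 and 1.66 for Cd44 and 2.30 and 2.48 for Ly6a. The Thy1 difference was 1.37 without control iPSC 3 and 0.92 without control iPSC 7. Either fit loses the pair of control lines, which differed more in Thy1 (53.2 and 102 RPKM) than the PC lines (109 and 93.8). With all lines, DESeq2 called Thy1 (1.19, adjusted p = 0.00232). The Nt5e difference was 1.43 without PC iPSC 13 and 2.48 without PC iPSC 5. A fit without 1 line has a single pair of lines left to measure spread, so a call gained in it is not firmer evidence. Limma on log2(RPKM + 1) called only 5 genes in this comparison, and none of the 6 markers was among them.

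**Figure D2:**
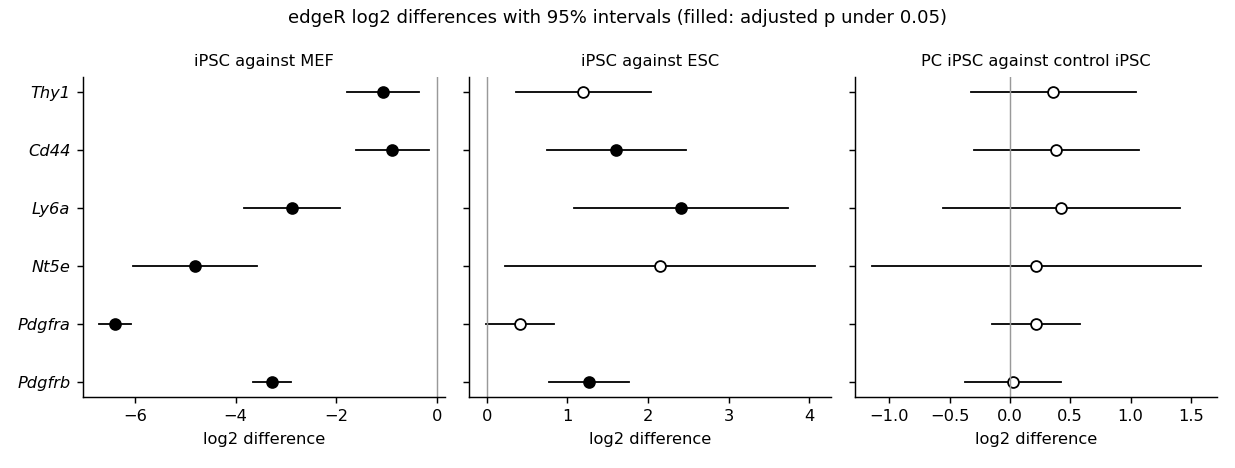
Log2 differences of the 6 genes from edgeR in the 3 tested comparisons, with 95% intervals as lines; filled points had an adjusted p under 0.05 and open points did not. Against MEF the differences range from -6.39 (Pdgfra) to -0.88 (Cd44), against ESC 3 of 6 are filled, and between PC and control iPSC each interval includes 0.

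The last comparison set PC iPSC beside control iPSC. None of the 6 genes passed the test, nor did any gene of the table (0% of 16435 called by edgeR and 0 by DESeq2, with 385 at an unadjusted p under 0.05 in edgeR). The log2 differences were 0.36 for Thy1 (SE 0.29), 0.38 for Cd44 (SE 0.29), 0.43 for Ly6a (SE 0.41), 0.22 for Nt5e (SE 0.57), 0.22 for Pdgfra (SE 0.15) and 0.03 for Pdgfrb (SE 0.17). In ratio terms the 95% interval of PC over control ran from 0.797 to 2.06 for Thy1, 0.811 to 2.10 for Cd44, 0.679 to 2.66 for Ly6a and 0.452 to 3.0 for Nt5e. It was narrower for the PDGF receptors, from 0.904 to 1.49 for Pdgfra and 0.771 to 1.34 for Pdgfrb. The lines of the groups overlapped for 5 genes. Only for Pdgfra did both PC lines lie above both control lines, as they did for 16.2% of tested genes.

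For Thy1, Cd44 and Ly6a the differences rested on the control lines. Without control iPSC 7, which leaves control iPSC 3 as the only control line, the differences of Thy1, Cd44 and Ly6a were 0.91, 0.93 and 1.32. Without control iPSC 3 the same 3 differences were -0.029, 0.0016 and -0.11. The Nt5e difference moved with the PC lines, to 0.93 without PC iPSC 5 and -1.21 without PC iPSC 13. The Pdgfrb difference, 0.03 with all lines, lay between -0.15 and 0.24, and that of Pdgfra between 0.13 and 0.32, whichever line was left out.

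Among the 4 iPSC lines, Thy1, Cd44 and Ly6a were low in control iPSC 3, and Nt5e was not. As log2 deviations from the mean of the 4 lines, Thy1 stood at -0.69 in control iPSC 3, Cd44 at -0.70 and Ly6a at -1.02, while the other 3 lines lay between 0.11 and 0.45 for these genes. Pdgfra and Pdgfrb were also lowest in control iPSC 3, at -0.21 and -0.22. Control iPSC 3 was the lowest iPSC line for 29% of tested genes. Nt5e deviated most in the PC lines, by -1.14 in line 5 and 1.00 in line 13, against 0.19 and -0.05 in control lines 3 and 7.

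Other gene groups moved with control iPSC 3. The median deviation of 35 fibroblast matrix genes was -0.61 in that line and 0.12 to 0.31 in the other 3. For 25 interferon and antigen presentation genes it was -0.70 against 0.22 to 0.35, and for 20 naive pluripotency genes 0.10 against -0.11 to 0.01. The part of fibroblast RNA, from feeders or from cells of the line, in the low Thy1, Cd44 and Ly6a values of control iPSC 3 was not tested.

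**Figure D3:**
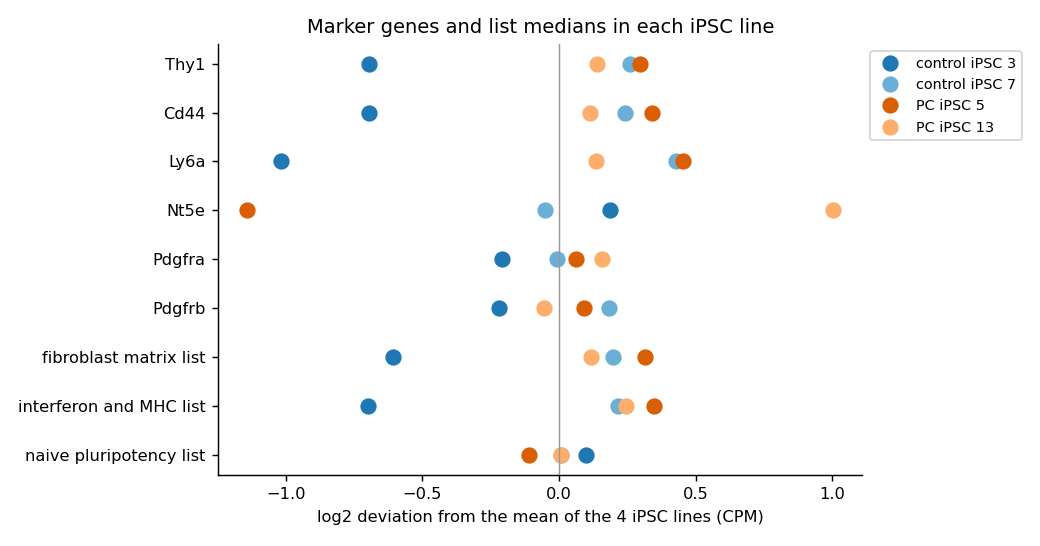
Log2 deviation of each iPSC line from the mean of the 4 lines, on TMM-scaled CPM, for the 6 genes and as medians of 3 gene lists; each point is 1 line. Control iPSC 3 is the lowest point for Thy1 (-0.69), Cd44 (-0.70), Ly6a (-1.02) and the fibroblast matrix list (-0.61), while Nt5e spreads from -1.14 in PC iPSC 5 to 1.00 in PC iPSC 13.

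Since ESC and iPSC were maintained on fibroblast feeders, each level was also expressed as a share of the MEF level. The MEF library may not be plain fibroblasts, given its Pou5f1, Sox2 and macrophage reads, so these are shares of that library and not of a pure fibroblast level. The shares differed between the 6 genes, and the part of feeder RNA in them was not tested. Mean iPSC levels were 53.9% of MEF for Cd44 and 47.4% for Thy1, 13.5% for Ly6a, 10.2% for Pdgfrb, 3.51% for Nt5e and 1.18% for Pdgfra. In ESC the shares were 17.1% for Cd44, 20% for Thy1, 2.44% for Ly6a, 4.10% for Pdgfrb, 0.771% for Nt5e and 0.859% for Pdgfra.

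Other fibroblast genes spread over a like range. Among 32 other fibroblast surface genes with at least 1 RPKM in MEF, the median share in iPSC was 18.6%, from 0.102% for Cd34, a sialomucin of progenitor cells, to 285%. Of these 32, 6 had a larger share than Thy1 and 31 a larger share than Pdgfra. Mcam, Dpp4 and Bst1 fell under that cut in MEF and so were left out, and each was higher in iPSC than in MEF. Over 35 fibroblast matrix genes the median was 24.5%, with 10 above Thy1 and 33 above Pdgfra. Col1a1, the main chain of type I collagen, stood at 54.4%, close to Cd44, and Thbs1, the matrix protein thrombospondin 1, at 90.9%. The proteoglycans Dcn and Lum stood at 0.585% and 1.28%, close to Pdgfra. Over 21 mesenchymal transcription factors the median was 15.7%, with 3 above Thy1.

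**Figure D4:**
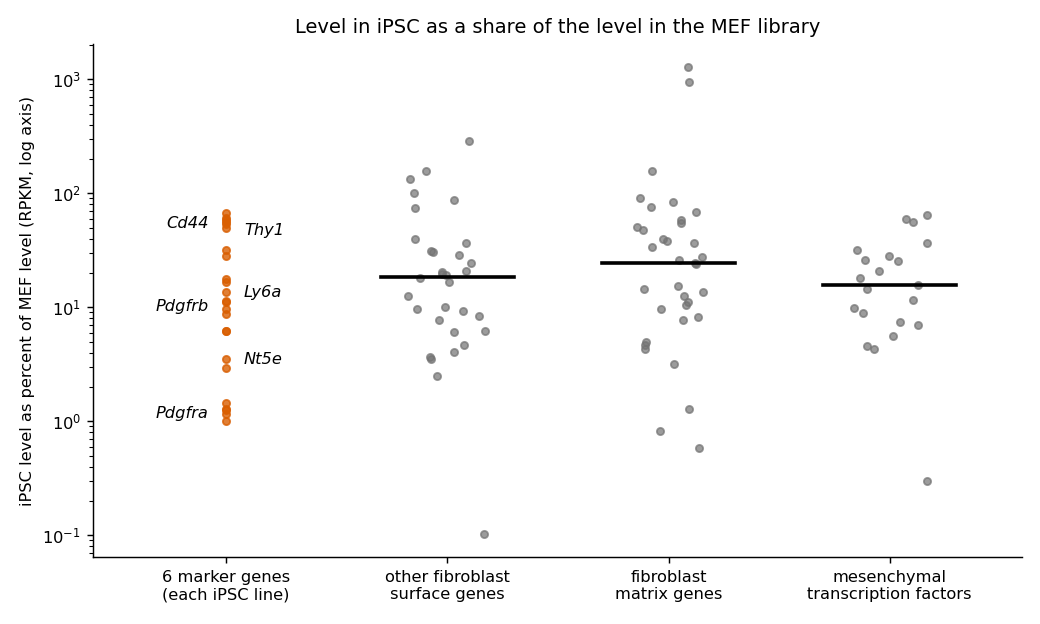
Level in iPSC as a percent of the level in the MEF library (RPKM, log axis). Left, the 6 marker genes, 1 point per iPSC line. Right, the mean of the 4 iPSC lines for each gene of 3 lists with at least 1 RPKM in MEF. Bars are list medians (18.6%, 24.5% and 15.7%). Thy1 and Cd44 lie above the medians and Nt5e and Pdgfra below them.

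The genes that act with the PDGF receptors did not move as a block. Of 28 PDGF pathway genes tested, 19 were called lower and 5 higher in iPSC than in MEF (background 31.6% and 36.5%), with a median log2 difference of -1.25 against 0.16 for all genes. Against ESC, 2 were called higher and 2 lower (background 4.71% and 5.71%, median 0.02 against 0.03). The ligands are given as a complete set, outside the rule for naming genes. Pdgfa, which signals through Pdgfra, was higher in iPSC, at 82.4 ± 10.7 RPKM (SD, n = 4) against 8.59 in MEF (3.28, SE 0.25, adjusted p = 5.52e-05 in edgeR) and 32.9 in ESC (1.28, SE 0.21, adjusted p = 0.0212). Pdgfb, which binds both receptors, was lower in iPSC, at 0.597 ± 0.188 (SD, n = 4) against 2.66 in MEF (-2.15, SE 0.35, adjusted p = 0.00153) and 2.85 in ESC (-2.31, SE 0.35, adjusted p = 0.0172). Pdgfc and Pdgfd were lower in iPSC than in MEF, by -2.21 and -2.26 on the log2 scale (edgeR adjusted p = 4.94e-05 and 0.000978). Nrp1, the coreceptor neuropilin 1, was higher in iPSC than in ESC by 1.43 (SE 0.24, edgeR adjusted p = 0.022). It was lower in iPSC than in MEF, at 4.46 against 60.5 RPKM (-3.74, SE 0.18, adjusted p = 1.13e-05).

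**Figure D5:**
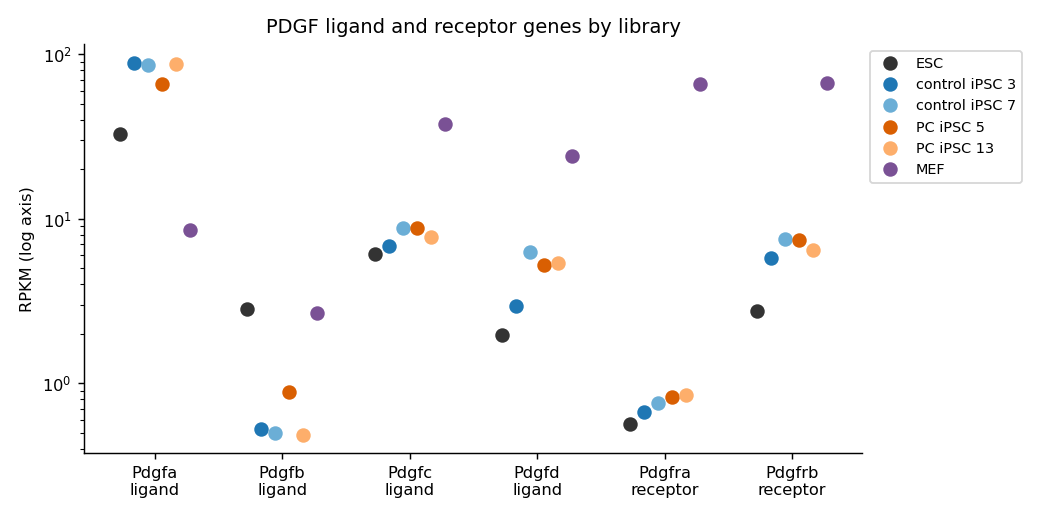
RPKM (log axis) of the 4 PDGF ligand genes and the 2 receptor genes, 1 point per library. The receptors stand near 66 in MEF and below 8 in every pluripotent library, while Pdgfa stands at 66.4 to 89.0 in iPSC and 8.59 in MEF.

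Around Cd44, the hyaluronan synthase Has2 was lower in iPSC than in MEF (-1.23, SE 0.30, edgeR adjusted p = 0.00991; 0.0526 with limma on log2(RPKM + 0.1)), and the membrane linker Ezr (ezrin), which ties Cd44 to actin, was higher (1.93, SE 0.17, adjusted p = 0.000104). These genes were named for their role, outside the naming rule. Of 28 hyaluronan and Cd44 partner genes tested, 8 were called higher and 15 lower against MEF (36.5% and 31.6% of all genes), and 3 higher and 3 lower against ESC (4.71% and 5.71%). Cemip, a hyaluronan-degrading protein, stood at 13 ± 0.928 RPKM in iPSC (SD, n = 4), 1.40 in ESC and 47.2 in MEF. It differed from ESC by 3.17 (SE 0.19, edgeR adjusted p = 0.00305) and from MEF by -1.84 (SE 0.13, adjusted p = 4.49e-05). Tmem2, of the same list, was lower in iPSC than in ESC, at 6.59 against 18.8 RPKM (-1.56, SE 0.13, edgeR adjusted p = 0.00611). Esrp1, a splicing factor that retains the variable exons of Cd44 in epithelial cells, stood at 12.3 in ESC, 0.668 to 1.23 in iPSC and 0 in MEF, and differed by -3.80 between iPSC and ESC (SE 0.25, adjusted p = 0.00305). Counts per gene do not resolve Cd44 isoforms. The percent of the deposited Cd44 length of 5654 bases that was covered by reads was 76.2% in ESC, 84.5% in MEF and 85.2% to 89.4% in iPSC, although MEF had the most reads.

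Genes that make, use or sense extracellular adenosine, the product of Nt5e, were called at rates near those of all genes against MEF. Of 20 tested, 9 were called higher and 5 lower in iPSC than in MEF (background 36.5% and 31.6%), and 3 higher and 3 lower than in ESC (background 4.71% and 5.71%). Ada, which deaminates adenosine, stood at 10.1 ± 0.63 RPKM in iPSC (SD, n = 4) against 1.11 in MEF (3.20, SE 0.27, edgeR adjusted p = 8.31e-05) and 4.24 in ESC (1.21, SE 0.23, adjusted p = 0.0267). Dpp4, a surface peptidase that binds Ada in some species, was higher in iPSC than in ESC by 2.20 (SE 0.50, edgeR adjusted p = 0.0409). Adk, the adenosine kinase, was lower in iPSC than in MEF by -2.30 (SE 0.15, edgeR adjusted p = 2.89e-05).

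Among relatives of Ly6a, 19 were tested, of which 5 were called higher and 7 lower against MEF and 2 higher and 0 lower against ESC. The shares of all genes were 36.5% and 31.6% against MEF, near those of the family, and 4.71% and 5.71% against ESC. Ly6c1, a close relative in the same cluster, stood at 344 RPKM in MEF, 0.936 in ESC and 11 ± 4.48 in iPSC (SD, n = 4). It was lower in iPSC than in MEF by -4.98 (SE 0.34, edgeR adjusted p = 3.67e-05) and higher than in ESC by 3.48 (SE 0.62, adjusted p = 0.0239). Ly6c1 also had its lowest iPSC value in control iPSC 3, 5.23 against 10.7 to 16.0. Ly6e, another interferon-inducible family member, stood at 115 in MEF, 124 in ESC and 66.3 to 120 in iPSC. Ly6k, a germ cell member, stood at 0 in MEF and was higher in iPSC than in ESC by 2.05 (SE 0.42, edgeR adjusted p = 0.0324). Close relatives can share reads, so the split between Ly6a and Ly6c1 is uncertain. Reads covered 99.9% of the Ly6a length in control iPSC 7 and 79.2% to 86.1% in the other 5 libraries, although MEF had the most Ly6a reads.

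The machinery that builds the GPI anchor of Thy1, Ly6a and Nt5e was present in all libraries, with 0 of its 28 measured genes at 0 in any library. Its summed level was 411 to 443 RPKM in iPSC, 431 in ESC and 358 in MEF. Of the 28, 9 were called higher and 6 lower against MEF (median 0.08), where 36.5% and 31.6% of all genes were. Against ESC (background 4.71% higher and 5.71% lower) 2 were called higher, Pigk of the transamidase (0.82, SE 0.15, edgeR adjusted p = 0.0253) and the mannosyl donor enzyme Dpm1 (1.43, SE 0.20, adjusted p = 0.015), and 1 lower, the mannosyltransferase Pigv (-1.09, SE 0.20, adjusted p = 0.0248). Among 14 tested binding and signalling partners of Thy1, 2 were called higher and 9 lower against MEF (36.5% and 31.6% of all genes), including the integrin chain Itgav (-2.02, SE 0.16, edgeR adjusted p = 6.24e-05), named for its role. Against ESC 1 was called, near the 4.71% of all genes called higher: the kinase Lyn, higher in iPSC by 1.43 (SE 0.29, adjusted p = 0.0327).

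Other surface genes of fibroblasts were mostly called lower against MEF, as the 6 markers were. Of 35 tested, 26 were called lower and 4 higher in iPSC than in MEF (31.6% and 36.5% of all genes), with a median log2 difference of -2.33. The 4 higher, given as a complete set, were Mcam (5.01), Dpp4 (4.56), Bst1 (2.32) and Ngfr (1.52). Against ESC, 11 were called higher and 1 lower (4.71% and 5.71% of all genes), with a median of 0.85 against 0.03 for all genes. The largest of the higher differences was that of Dpp4 (2.20, SE 0.50, edgeR adjusted p = 0.0409). Dpp4 stood at 11.5 RPKM in iPSC and only 0.495 in MEF. Among the higher ones were the collagen receptor Ddr2 (1.93, SE 0.28, edgeR adjusted p = 0.0159), the TGF-beta receptor Tgfbr2 (1.68, SE 0.27, adjusted p = 0.0198) and the membrane protein Emp1 (1.05, SE 0.24, adjusted p = 0.0416). The Emp1 call ended without PC iPSC 13 (1.03, adjusted p = 0.0529). The lower one was Cd34 (-1.40, SE 0.31, adjusted p = 0.0392), at 256 RPKM in MEF and 0.140 to 0.318 in iPSC, the gene of largest difference from MEF in the list (-9.92, SE 0.21, adjusted p = 2.06e-06).

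Of 25 tested surface genes of pluripotent cells, 10 were called lower and 2 higher in iPSC than in ESC (5.71% and 4.71% of all genes), 13 were not called, and the median was -0.68. The 2 higher, given as a complete set, were Cd38 (0.97) and Jam2 (0.85). Those not called included Cdh1 (0.09), Cd9 (0.57), Slc2a3 (-0.28) and Tdgf1 (-0.84). Against MEF, 16 were called higher and 5 lower (36.5% and 31.6% of all genes). Epcam, an epithelial adhesion molecule gained in reprogramming, differed from ESC by -2.03 (SE 0.14, edgeR adjusted p = 0.00305). The tight junction genes Cldn4 and Cldn6 differed by -2.05 (SE 0.19, adjusted p = 0.00633) and -1.29 (SE 0.15, adjusted p = 0.00936). Alpl, the alkaline phosphatase of pluripotent cells, differed by -0.69 (SE 0.16, adjusted p = 0.0414). Icam1, the adhesion molecule followed together with Cd44 in sorted reprogramming cells and named here for that role, stood at 23.3 to 30.4 RPKM in iPSC, 41.8 in ESC and 8.03 in MEF, a difference of -0.68 from ESC (SE 0.16, adjusted p = 0.0426). That call ended without PC iPSC 13 (-0.63, adjusted p = 0.0514). Control iPSC 3, the line of lowest Cd44 (16.5 RPKM), had the highest Icam1 level of the iPSC lines (30.4 RPKM). In the other lines Cd44 and Icam1 fell in the same order. They stood at 34.8 and 28.1 in PC iPSC 5, 31.2 and 25.5 in control iPSC 7, and 28.6 and 23.3 in PC iPSC 13.

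Lists of markers for other cell types that carry these surface proteins went in different directions. The summed level of 18 leukocyte genes was 690 RPKM in MEF, 89.6 in ESC and 38.6 to 53.1 in iPSC. Of 17 tested, 2 were called higher and 13 lower in iPSC than in MEF (36.5% and 31.6% of all genes). Against ESC 1 was called higher and 3 lower (4.71% and 5.71% of all genes), with a median log2 difference of -1.03. The pan-leukocyte gene Ptprc stood at 3.52 in MEF, 0.0643 in ESC and 0 to 0.0325 in iPSC, whereas the T cell receptor gene Cd3e stood at 0 in MEF, 0.798 in ESC and 1.77 to 2.97 in iPSC. The 12 endothelial genes summed to 63.0 in MEF, 34.0 in ESC and 37.3 to 42.6 in iPSC. Of 11 tested, 4 were called higher and 4 lower against MEF (36.5% and 31.6% of all genes). Against ESC 1 was called higher and 0 lower (4.71% and 5.71% of all genes). Of the endothelial genes, Cdh5 stood at 0 to 0.0188 in iPSC and Kdr at 0.0414 to 0.219. Egfl7 held most of the iPSC sum, at a mean of 26.6 in iPSC against 1.62 in MEF and 23.2 in ESC. The 21 primitive endoderm genes summed to 2425 in MEF, 580 in ESC and 714 to 1152 in iPSC, lowest in control iPSC 3. Of 18 tested, 8 were called higher and 7 lower against MEF (36.5% and 31.6% of all genes). Against ESC 1 was called higher and 0 lower (4.71% and 5.71% of all genes), with a median log2 difference of 0.68 against 0.03 for all genes. Most of that sum came from matrix genes that fibroblasts also express, such as Sparc, at a mean of 492 in iPSC and 1344 in MEF. The transcription factor genes of the list were low, with Gata4 at 1.74 to 2.68 in iPSC and 2.36 in ESC, Gata6 at 1.02 to 1.36 and 0.560, and Sox17 at 0.187 to 0.473 and 0.193. The part of these cell types in the levels of the 6 genes was not tested.

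Genes were also ranked by how like their pattern over the 6 libraries was to that of each marker. Likeness was the root mean square difference of log2(RPKM + 0.1), centred on each gene's mean, over 6 libraries and 15234 candidate genes, and it is a description with no test. For Thy1 the nearest were Lox, the collagen cross-linking enzyme (0.056), the actin-binding Synpo (0.070) and Fxyd5 (0.086). For Cd44 they were Col1a1 (0.076), the chemokine Ccl8 (0.098) and Gdf11 (0.10). Thy1 and Cd44 differed from each other by 0.15, less than any other pair of markers. For Ly6a they were Thbs2 (0.14), Tnfrsf11b (0.19) and the protease Ctsk (0.20). For Pdgfrb they were the prostaglandin carrier Slco2a1 (0.075), Adgrl3 (0.098) and Ildr2 (0.11), and for Pdgfra Kctd12 (0.074), Fgf14 (0.16) and Ism1 (0.17). Nt5e had no close match, its nearest being Osr2 (0.47), Hoxa11os (0.48) and Rnase1 (0.49). Hoxa11os is an antisense gene whose reads are uncertain without strand. Fgf14 stood at 0 to 0.0234 RPKM in ESC and iPSC, Ism1 at 0.0244 to 0.0509, and Rnase1 at 0 in ESC. Likeness at such levels is largely set by the pseudocount. With a pseudocount of 1, 5 of these 18 genes stayed among the nearest, Lox and Synpo for Thy1, Col1a1 for Cd44, Slco2a1 for Pdgfrb and Thbs2 for Ly6a.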

How the data were processed

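Total RNA of 6 cultures was made into libraries with an mRNA kit, per the labels' protocols. The authors deposited whole-number counts of uniquely assigned reads per gene and RPKM values, per the file headers, with the percent of gene length covered. Recomputed RPKM equalled the deposited values (relative tolerance 1e-06) for all but 17 to 28 genes per library, none of them a marker. The submitters' processing notes name CASAVA 1.8.2 and the build mm10. For aligner, counter, annotation and strand use, nothing is stated in the labels or headers. The 41 entries without a gene number held 0.0028% of reads and stayed in.

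Counts were tested with edgeR 4.0.16 (R 4.3.3) (quasi-likelihood F-test, TMM scaling). The default filter left 16435 genes, and the model held 4 group means over all libraries (2 residual and 4.75 prior degrees of freedom). Benjamini-Hochberg adjustment ran over the 16435 genes, and calls needed an adjusted p under 0.05. DESeq2 1.42.0 and limma 3.58.1 served as alternatives. In simulated counts with 200 genes changed 4-fold, a log2 change of 2, edgeR recovered 99.5% for iPSC against MEF (15369 genes), 100% for iPSC against ESC (15386 genes) and 99.5% for PC against control iPSC (15385 genes). At a log2 change of 1 it recovered 31.5%, 28.5% and 54.5% (15357, 15382 and 15388 genes). The simulation gave every gene the same spread (biological coefficient of variation 0.18), took base levels from the iPSC lines and changed only 200 genes. These rates therefore do not apply to genes of larger spread, such as Nt5e and Ly6a. The members, gene lists and tests were chosen with earlier results of these data known. By rule, the genes to name from each list were up to 4 of highest mean level. Up to 3 called genes of largest difference per comparison were added, and for each marker the 3 genes of nearest pattern. Not every list gene that met the rule is given, and Egr1, Arc, Stab1, Hapln1 and Cldn7 are among those left out. Genes named for a role are said to be so.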

Additional observations from a re-analysis of the deposited data

How the results depend on the processing

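The 6 calls against MEF kept their sign under each alternative, and the calls of Pdgfra, Pdgfrb, Ly6a and Nt5e held under all 11. With limma on log2(RPKM + 1) the differences of Thy1 and Cd44 from MEF were -1.12 and -0.92, and with log2(RPKM + 0.1) -1.13 and -0.94, past the threshold in neither. Against ESC limma ended the calls of Cd44 (1.51 and 1.60), Pdgfrb (1.06 and 1.27) and Ly6a (2.28 and 2.35), with pseudocounts of 1 and 0.1. It called 5 and 0 genes, against 1713 by edgeR. DESeq2 called Thy1 against ESC (1.19). Between PC and control iPSC, the Nt5e difference turned to -0.091 with limma on log2(RPKM + 0.1). Of genes called against ESC, 774 were higher and 939 lower by edgeR and 1310 and 1057 by DESeq2, so that the share of higher calls moved. The cause of these changes was not tested.

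Leaving out single lines gave ranges against MEF of -1.34 to -0.89 for Thy1 and -1.15 to -0.71 for Cd44. Against ESC they were 0.92 to 1.37 for Thy1, 1.33 to 1.78 for Cd44, 1.96 to 2.66 for Ly6a and 1.43 to 2.48 for Nt5e, and 1713 genes became 1781 to 2873. Between PC and control iPSC they were -0.029 to 0.91 for Thy1, 0.0016 to 0.93 for Cd44, -0.11 to 1.32 for Ly6a, -0.15 to 0.24 for Pdgfrb and -1.21 to 0.93 for Nt5e, and 0 to 309 genes were called. Each such fit leaves a group with a lone line, assumed to vary like the others. Calls gained in such fits are therefore not firmer than those with all lines. No paired analysis was possible because the iPSC groups share no line number. Pdgfra against ESC and between PC and control iPSC passed the threshold in 0 of 11 alternatives each.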
